A study of Mus musculus with 8 samples.

Results

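The memory and stemness transcription factors are 9 genes that encode regulators of transcription in resting and central memory T cells: Tcf7, Lef1, Bach2, Satb1, Foxo1, Foxp1, Id3, Ets1 and Bcl11b. They were taken by symbol from the 25124 genes of the count table, with no threshold on a measured value. All 9 were in the table, and all 9 passed the filter on low counts. RNA was sequenced from 8 libraries of mouse spleen CD4 T cells, in 4 groups of 2. All cells came from mice that carry a GFP reporter of KLF2 and an RFP reporter of FOXP3, and every group was sorted as FOXP3-negative and CD44hi. Stimulated KLF2+ cells were sorted as KLF2 reporter-positive and then held for 48 h with anti-CD3 at 2.5 micrograms/mL and anti-CD28 at 1.25 micrograms/mL, antibodies that trigger the T cell receptor complex and its CD28 coreceptor. Unstimulated KLF2+ cells had the same sort and the same 48 h with no stimulus. Stimulated KLF2- and unstimulated KLF2- cells were sorted as reporter-negative and treated in these same ways. The reporter was read at the sort, so KLF2+ and KLF2- name what a cell showed before the culture and not at the RNA harvest. The labels name no strain, sex, age or number of mice, and do not say whether libraries of a group came from separate mice or cultures.

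These factors hold T cells in a state that can persist and divide again. TCF-1, the product of Tcf7, and LEF1 bind DNA through HMG boxes and work with beta-catenin or with Groucho/TLE corepressors. FOXO1 is kept out of the nucleus when PI3K and AKT are active downstream of the T cell receptor, and in T cells it is known to activate Klf2 and Il7r. FOXP1 is a forkhead repressor that keeps naive T cells quiescent. ID3 binds E proteins and stops them from binding DNA. BACH2 represses effector genes and competes with AP-1 proteins for their sites, SATB1 organises chromatin loops in thymocytes and T cells, and ETS1 and BCL11B maintain T cell identity.

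The sequences shown are the 250 bases before the annotated start of 4 of these genes, from RefSeq on GRCm38.p6, written 5′ to 3′ along the gene. They were chosen because Lef1, Foxp1 and Id3 are genes that fell with stimulation of KLF2+ cells and whose windows hold the letters of the KLF family motif CCACCC, while Satb1 rose and its window holds none. The windows do not divide the genes by response: Tcf7, which fell, has no match, and Bcl11b, which was not called, has one. The Tcf7 window holds an ATG with a reading frame open to its last base. It may thus be coding sequence, and its lack of a match may not describe a promoter. Capitals mark CCACCC, or its reverse complement GGGTGG. The windows are chr17:51832648-51832897 on the minus strand for Satb1, chr3:131110047-131110296 on the plus strand for Lef1, chr6:99520994-99521243 on the minus strand for Foxp1 and chr4:136143572-136143821 on the plus strand for Id3.
Satb1: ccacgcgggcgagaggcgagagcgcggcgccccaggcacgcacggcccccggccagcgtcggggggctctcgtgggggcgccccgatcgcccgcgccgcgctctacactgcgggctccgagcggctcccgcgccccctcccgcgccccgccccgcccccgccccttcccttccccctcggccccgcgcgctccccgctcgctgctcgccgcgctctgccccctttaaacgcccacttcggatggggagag
Lef1: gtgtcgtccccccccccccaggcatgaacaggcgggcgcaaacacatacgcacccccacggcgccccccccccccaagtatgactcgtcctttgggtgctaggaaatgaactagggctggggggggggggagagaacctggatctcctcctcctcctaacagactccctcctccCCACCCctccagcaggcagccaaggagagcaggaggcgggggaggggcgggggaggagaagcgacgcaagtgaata
Foxp1: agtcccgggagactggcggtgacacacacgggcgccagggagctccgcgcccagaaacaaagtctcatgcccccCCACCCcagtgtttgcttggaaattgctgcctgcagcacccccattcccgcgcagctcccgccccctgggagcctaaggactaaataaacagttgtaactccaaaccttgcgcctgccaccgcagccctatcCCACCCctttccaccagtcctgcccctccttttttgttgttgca
Id3: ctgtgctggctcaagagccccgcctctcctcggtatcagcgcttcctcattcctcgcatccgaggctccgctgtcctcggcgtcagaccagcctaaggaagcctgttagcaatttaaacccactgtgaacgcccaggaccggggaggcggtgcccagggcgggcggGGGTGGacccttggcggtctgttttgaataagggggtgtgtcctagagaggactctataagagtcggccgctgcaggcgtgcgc

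RefSeq windows before the annotated start were found for 8 of the 9 genes, though that of Tcf7 may be coding sequence. CCACCC on either strand was present in 4 of these 8, Lef1, Foxp1, Id3 and Bcl11b, and in 29.7% of all 17567 windows of the same length. In Lef1 the match began 76 bases before the start, in Foxp1 there were matches 176 and 44 bases before it, in Id3 84 bases and in Bcl11b 199 bases. The ETS motif CCGGAAG was found in Bach2 alone of the 8, and in 9.26% of all windows. The FOXO motif GTAAACA, the TCF and LEF motif CTTTGAT and the AP-1 and BACH motif TGAGTCA were in none of the 8 windows and in 2.74%, 3.05% and 4.16% of all windows. No match overlapped a match to another motif. A match describes these letters only. The Satb1 window was 80.8% G and C, the highest share of the 8, against a median of 55.6% over all windows.

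The libraries differed in how many reads fell in exons and in how many of these were background. Exon reads came to 21030504 and 36620465 in stimulated KLF2+ libraries and 8266210 and 17845988 in unstimulated KLF2+ libraries. They came to 4525898 and 2987038 in stimulated KLF2- libraries and 7338372 and 8616876 in unstimulated KLF2- libraries. Background was read from 1464 olfactory and vomeronasal receptor genes, whose known place is sensory tissue. It made up 1.24% and 0.401% of exon reads in stimulated KLF2+ libraries, 7.06% and 2.61% in unstimulated KLF2+ libraries, 11.4% and 20.1% in stimulated KLF2- libraries and 7.80% and 7.09% in unstimulated KLF2- libraries. Exon reads made up 7.96% of aligned tags in stimulated KLF2- replicate 4 and 80.3% in stimulated KLF2+ replicate 2, the lowest and highest shares. Stimulated KLF2- replicate 4 had the fewest exon reads and the largest background share, though not the fewest aligned tags. For each of the 9 genes the background share of its own reads was highest in that library, at 26.7% for Satb1, 18.7% for Bach2 and 0.461% for Tcf7. All 12 T cell markers were present in every group, with summed levels of 8615 to 9444 CPM in stimulated KLF2+ cells and 6011 to 9036 CPM in unstimulated KLF2+ cells, against 3133 to 3299 CPM in stimulated KLF2- cells and 4403 to 4902 CPM in unstimulated KLF2- cells. CPM here are scaled by TMM factors. The 13 myeloid markers summed to 926 to 1672 CPM in unstimulated KLF2+ cells and to between 49.0 and 96.2 CPM in the other 3 groups. Klf2, whose direction the sort fixes, stood at 93.5 and 139.1 CPM in stimulated KLF2+ libraries, 303.0 and 379.4 CPM in unstimulated KLF2+ libraries, 46.5 and 75.8 CPM in stimulated KLF2- libraries and 41.0 and 65.0 CPM in unstimulated KLF2- libraries. In these bulk samples fewer cells of a type and less RNA per cell cannot be told apart.

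Per length, Tcf7 and Ets1 were the most abundant of the 9 genes in every group and Bach2 the least. On the deposited TPM scale, which corrects for transcript length, Tcf7 averaged 246 ± 21.9 in stimulated KLF2+ cells, 791 ± 4.1 in unstimulated KLF2+ cells, 626 ± 235 in stimulated KLF2- cells and 761 ± 15.7 in unstimulated KLF2- cells (SD, n = 2 each). Ets1 averaged 216 ± 12.6, 393 ± 36.2, 350 ± 4.6 and 353 ± 14.6 TPM in the same order of groups. Bach2 was at 4.4 TPM in both stimulated KLF2+ libraries and at 6.7 ± 1.8 TPM in unstimulated KLF2+ cells, 17.4 ± 2.9 TPM in stimulated KLF2- cells and 9.96 ± 0.67 TPM in unstimulated KLF2- cells. Satb1 was the third of the 9 in stimulated KLF2+ cells, at 125 ± 1.1 TPM. In unstimulated KLF2+ cells it ranked eighth, at 46.5 ± 9.3 TPM, and in both KLF2- groups it ranked seventh, at 46.4 ± 46.2 TPM with stimulus and 46.9 ± 2.2 TPM without. The other 5 genes lay between 16.3 TPM, for Foxp1 in a stimulated KLF2+ library, and 214 TPM, for Lef1 in an unstimulated KLF2+ library.

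**Figure D1:**
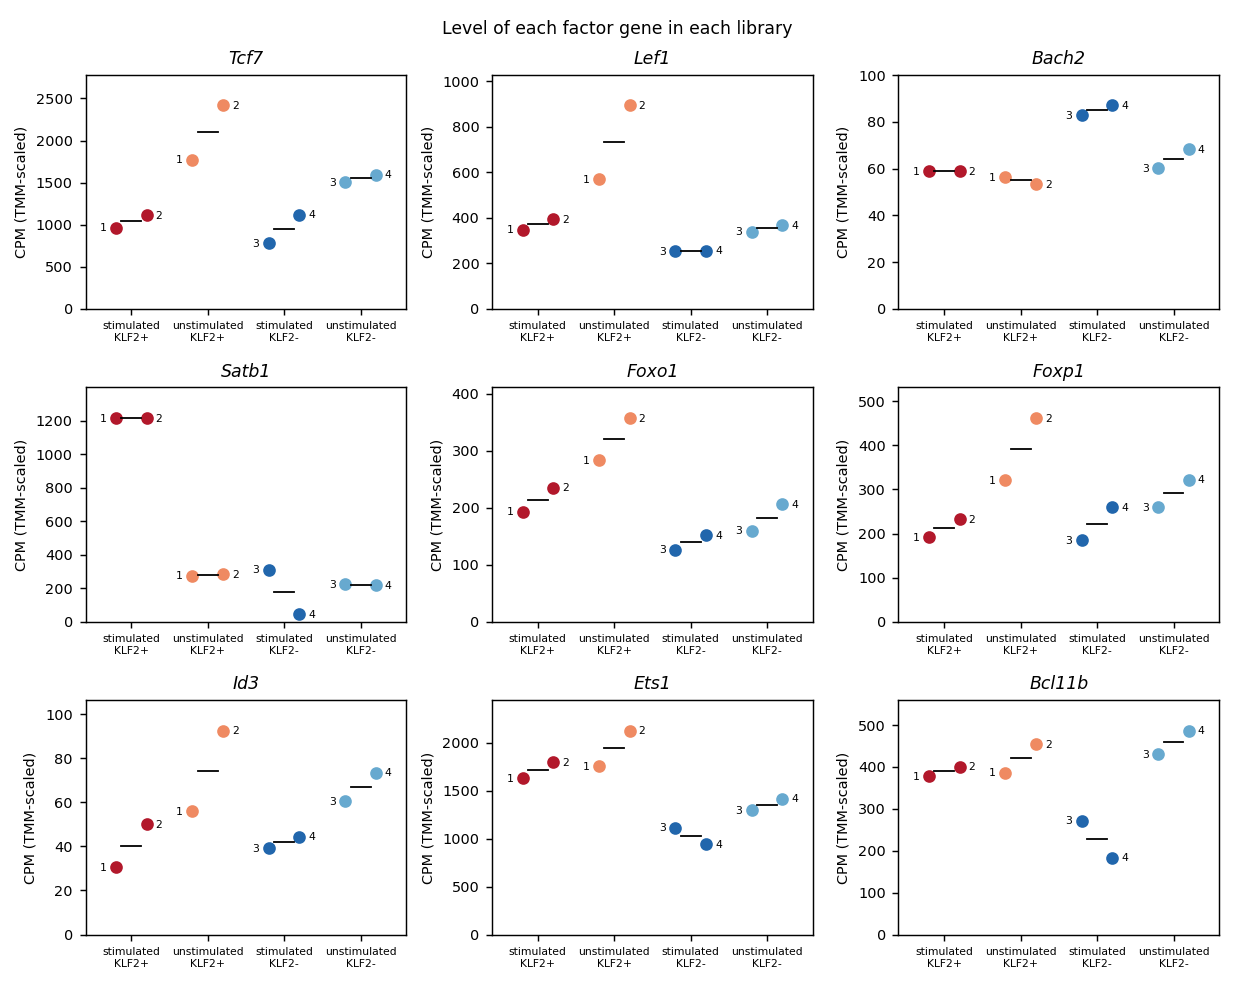
Level of each of the 9 genes in every library, in CPM scaled by TMM factors (y axis, linear from 0, a scale of its own in each panel) for the 4 groups (x axis); points are libraries with their replicate number and lines are group means. Satb1 sits near 1216 CPM in both stimulated KLF2+ libraries and at 44.9 to 311.6 CPM in the other 6. Tcf7, Lef1, Foxo1, Foxp1, Id3 and Ets1 are highest on average in unstimulated KLF2+ cells.

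Stimulation of KLF2+ cells lowered Tcf7, Lef1, Foxp1 and Id3 and raised Satb1, while the other 4 genes did not pass the test. The calls come from edgeR's quasi-likelihood test over 19146 genes, at a Benjamini-Hochberg adjusted p under 0.05, and over all genes tested 17.4% were lower and 19.7% higher in this comparison. The 9 genes had a median log2 fold change of -0.58, against -0.25 for all genes tested.

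Tcf7 (chr11:52252283-52283014 on mm10, minus strand) was at 966.1 and 1110.4 CPM in stimulated KLF2+ libraries, against 1771.8 and 2421.5 CPM in unstimulated KLF2+ libraries. Both stimulated libraries lay under both unstimulated ones, at a log2 fold change of -1.01 ± 0.29 (SE; edgeR adjusted p = 0.0268), or 0.495 times the unstimulated level. Lef1 (chr3:131110297-131224357, plus strand), the closest relative of Tcf7 in T cells, was at 348.2 and 394.3 CPM with stimulus and 569.2 and 895.0 CPM without, a log2 fold change of -0.98 ± 0.25 (adjusted p = 0.0183). Lef1 was thus at 0.507 times its unstimulated level, and the level of Lef1 per 100 TPM of Tcf7 overlapped between the groups, at 26.5 and 26.1 in stimulated KLF2+ libraries and 23.6 and 27.2 in unstimulated ones.

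The forkhead genes gave 1 call. Foxp1 (chr6:98925342-99520993, minus strand) was at 191.5 and 233.1 CPM in stimulated KLF2+ libraries, against 321.1 and 462.3 CPM in unstimulated KLF2+ libraries, with a log2 fold change of -0.88 ± 0.27 (edgeR adjusted p = 0.0305). Foxo1 (chr3:52268337-52350109, plus strand) was at 193.2 and 235.7 CPM with stimulus and 284.1 and 357.9 CPM without. Its groups did not overlap either, but its log2 fold change of -0.58 ± 0.23 missed the threshold (adjusted p = 0.0705, 95% normal interval -1.04 to -0.13). Id3 (chr4:136143822-136145392, plus strand) was the least abundant in CPM of the genes that fell, at 30.5 and 50.04 CPM in stimulated libraries and 55.8 and 92.4 CPM in unstimulated ones, with a log2 fold change of -0.88 ± 0.30 (adjusted p = 0.043).

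Satb1 (chr17:51736187-51832647, minus strand) moved the other way from the genes that fell. It was at 1216.2 and 1216.9 CPM in stimulated KLF2+ libraries, against 274.1 and 284.1 CPM in unstimulated KLF2+ libraries. That is 4.36 times the unstimulated level, a log2 fold change of 2.12 ± 0.64 (edgeR adjusted p = 0.0303). The replicates within each of these groups were close, while the stimulated KLF2- libraries that share the fit's estimate of the spread had 311.6 and 44.9 CPM. Leaving out stimulated KLF2- replicate 4 gave a log2 fold change of 2.13, and leaving out replicate 3 gave 2.13. Satb1 was called in 9 of the 17 alternative fits, with log2 fold changes between 1.42 and 2.19.

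Ets1, Bcl11b and Bach2 showed no change that passed the test. Ets1 (chr9:32696042-32757820, plus strand) was at 1631.6 and 1795.5 CPM in stimulated KLF2+ libraries and 1758.4 and 2124.3 CPM in unstimulated ones (95% interval of the log2 fold change -0.69 to 0.33). Bcl11b (chr12:107910403-108003414, minus strand) was at 378.4 and 400.3 CPM with stimulus and 386.6 and 453.8 CPM without (interval -0.59 to 0.37). Their groups overlapped on this scale. Bach2 (chr4:32417435-32586108, plus strand) was at 58.9 CPM in both stimulated libraries and 56.4 and 53.4 CPM in unstimulated ones (interval -0.24 to 0.45), a difference whose sign turned to -0.41 with TMM factors from genes of at least 50 CPM alone, and to -0.32 with those factors and background reads subtracted.

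How far these genes fell depended on the scaling. The fit called background-subtracted here changes both choices, the subtraction and factors taken from genes of at least 50 CPM. In it 7 of the 9 genes were lower (Tcf7, Lef1, Foxo1, Foxp1, Id3, Ets1 and Bcl11b, with log2 fold changes between -1.54 and -0.64) and none was higher, against 16.4% of all genes lower and 12.7% higher in that fit. These factors alone, with no subtraction, also gave 7 lower and none higher, against 5667 of 19146 genes lower and 2167 higher. In the background-subtracted fit Satb1 was at 1.59 ± 0.68 (edgeR adjusted p = 0.108). Single libraries also decided which of the 9 genes were called. The median log2 fold change of the 9 ran from -0.77 without unstimulated KLF2+ replicate 1 to -0.36 without unstimulated KLF2+ replicate 2. The medians of all genes tested in these 2 fits were -0.19 and -0.27. The directions of Tcf7, Lef1, Foxo1, Foxp1, Id3 and Satb1 were the same in each of the 17 alternatives run. Of the 17 fits, 12 called Tcf7, 12 Lef1, 12 Foxp1, 11 Id3, 9 Satb1 and 5 Foxo1. Of the 13 myeloid markers 12 were also lower with stimulus, their sum being 58.7 to 96.2 CPM in stimulated and 926 to 1672 CPM in unstimulated KLF2+ libraries, with none at 0 in both libraries of a group, and their part in the result was not tested.

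**Figure D2:**
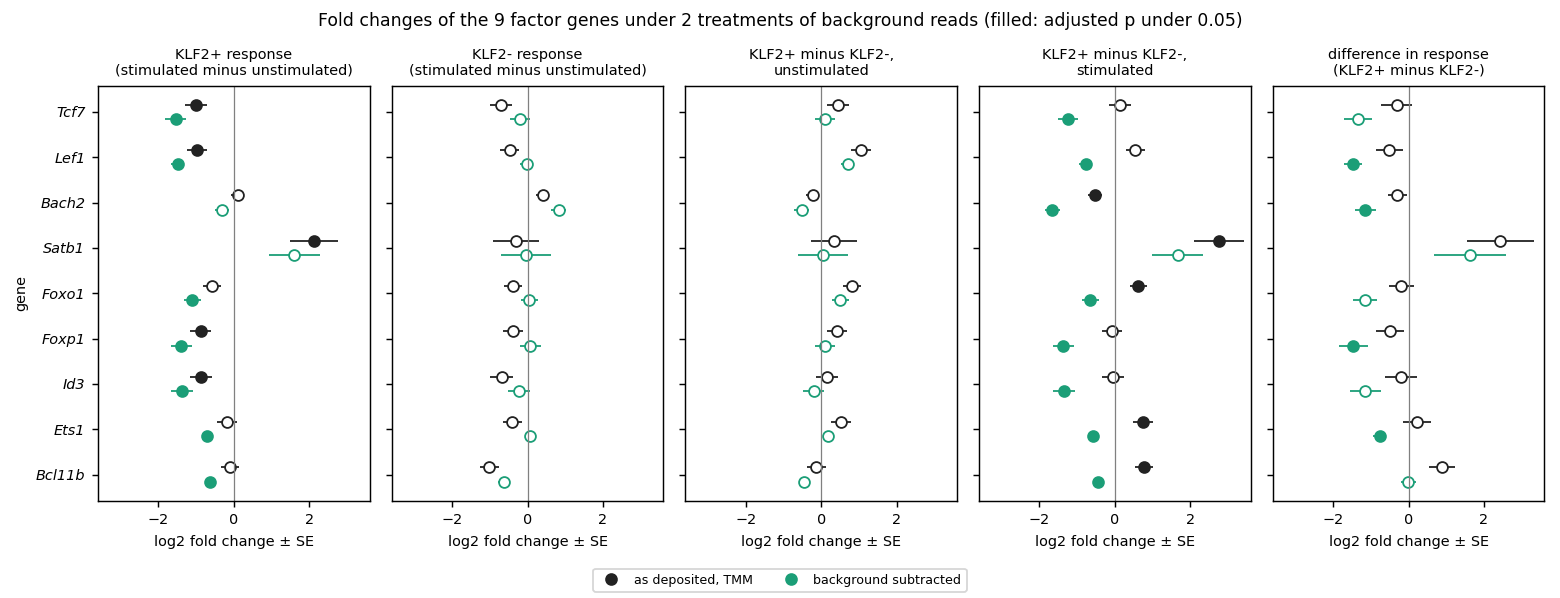
Log2 fold change (x axis) with its standard error for each of the 9 genes (y axis) in the 5 comparisons, from the counts as deposited with TMM scaling (black) and after background subtraction (green); filled points passed an adjusted p of 0.05. In the KLF2+ response the green points lie left of the black ones, and in the stimulated comparison 5 genes change sign between black and green while Satb1 stays right of 0 and Bach2 left of it.

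In KLF2- cells none of the 9 genes was called with stimulation, and neither was any of the 19146 genes (0% higher and 0% lower, and 0% in each direction after background subtraction). Of all genes 2802 had an unadjusted edgeR p under 0.05, while DESeq2 called 74 and limma on log2(TPM + 1) called 12. By edgeR 4 of the 9 genes had an unadjusted p under 0.05, namely Tcf7, Bach2, Id3 and Bcl11b, and DESeq2 and limma each called none of the 9. On the deposited counts Bcl11b had the largest change. It was at 272.0 and 183.2 CPM in stimulated KLF2- libraries, against 430.4 and 486.1 CPM in unstimulated KLF2- libraries, so the groups did not overlap and the log2 fold change was -1.01 ± 0.25 (edgeR adjusted p = 0.268). In the background-subtracted fit it was -0.64 ± 0.14, smaller in size than the 0.82 ± 0.19 of Bach2. With the replicate number as a block it was -1.03 with an edgeR adjusted p of 0.0267, the 1 call among the 9 genes in that fit, where 2.4% of all genes were lower, and the number is not known to mark a shared mouse or day.

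Tcf7 was at 783.2 and 1120.5 CPM in stimulated KLF2- libraries, against 1504.0 and 1595.3 CPM in unstimulated KLF2- libraries, a log2 fold change of -0.70 ± 0.29 (edgeR adjusted p = 0.323). After background subtraction its value was -0.20 ± 0.27. Bach2 was at 82.8 and 87.1 CPM with stimulus and 60.2 and 68.2 CPM without, and was the gene whose stimulated libraries both lay above both unstimulated ones (log2 fold change 0.40 ± 0.18, adjusted p = 0.337). Background made up 18.7% of the Bach2 reads of stimulated replicate 4, and after subtraction the value was 0.82 ± 0.19. Satb1 split the stimulated libraries, at 311.6 CPM in replicate 3 and 44.9 CPM in replicate 4, around 225.0 and 216.7 CPM in unstimulated KLF2- libraries. Its log2 fold change was 0.49 without replicate 4 and -2.34 without replicate 3, so no direction can be given for Satb1 in KLF2- cells. Lef1, Foxo1, Foxp1, Id3 and Ets1 had log2 fold changes between -0.68 and -0.39, which moved to between -0.23 and 0.07 after background subtraction.

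Without stimulation, none of the 9 genes passed the edgeR test between KLF2+ and KLF2- cells, while 1.07% of all genes were higher in KLF2+ cells and 1.25% lower. After background subtraction these shares were 0.974% and 3.05%, again with none of the 9. Lef1 came closest, at 569.2 and 895.0 CPM in unstimulated KLF2+ libraries, against 338.2 and 367.7 CPM in unstimulated KLF2- libraries. The groups did not overlap, and the log2 fold change was 1.05 ± 0.26 (edgeR adjusted p = 0.071). DESeq2 called Lef1 (1.17, adjusted p = 0.00153) and limma on log2(TPM + 1) did too (0.65, adjusted p = 0.0412). Foxo1, the activator of Klf2, was at 284.1 and 357.9 CPM in KLF2+ libraries and 159.7 and 206.0 CPM in KLF2- libraries, a log2 fold change of 0.81 ± 0.23 (edgeR adjusted p = 0.12) that DESeq2 called at 0.93 (adjusted p = 0.0168). Lef1 was above 0 in all 16 alternatives, between 0.65 and 1.41, and called in 8. Foxo1 was above 0 in all 16 as well, between 0.44 and 1.04, but called in only 2. In the background-subtracted fit Foxo1 was at 0.50 ± 0.23 (edgeR adjusted p = 0.266). Whether Lef1 and Foxo1 were called also changed with the single library left out. DESeq2 called 3.47% of all genes higher. These 2 genes were the ones with an unadjusted edgeR p under 0.05.

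Tcf7 did not separate the unstimulated populations in the test, with 1771.8 and 2421.5 CPM in KLF2+ libraries and 1504.0 and 1595.3 CPM in KLF2- libraries (log2 fold change 0.44, 95% interval -0.14 to 1.01). The KLF2+ libraries were both higher on that scale, and the value was 0.10 after background subtraction. Ets1 was at 1758.4 and 2124.3 CPM in KLF2+ libraries and 1296.0 and 1415.4 CPM in KLF2- libraries (0.52 ± 0.26, edgeR adjusted p = 0.307). Foxp1, Id3, Satb1, Bcl11b and Bach2 had log2 fold changes between -0.23 and 0.43, and the sign for Id3, and under limma for Satb1, turned with the scaling. The higher myeloid marker sum of unstimulated KLF2+ cells, 926 to 1672 CPM against 49.0 to 52.7 CPM in unstimulated KLF2- cells, stands beside these values, with 4 of the 13 markers called higher, and its part in them was not tested.

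With stimulation, Satb1 was higher in KLF2+ than in KLF2- cells and Bach2 lower, while Tcf7, Lef1, Foxo1, Ets1 and Bcl11b changed sign with the scaling. Over all genes 35.5% were higher in stimulated KLF2+ cells and 39.7% lower, and after background subtraction 16% and 38.6%, so a call by itself is common in this comparison. With TMM scaling of the deposited counts 4 genes were higher, Satb1 (2.77 ± 0.66, edgeR adjusted p = 0.00428), Bcl11b (0.77 ± 0.25), Ets1 (0.74 ± 0.26) and Foxo1 (0.62 ± 0.23), and Bach2 was lower (-0.53 ± 0.18, adjusted p = 0.0211). In the background-subtracted fit none was called higher and 8 were lower, among them Bcl11b (-0.45), Ets1 (-0.58) and Foxo1 (-0.65). Factors from genes of at least 50 CPM alone gave 8 lower as well, with -0.40 for Bcl11b, -0.45 for Ets1 and -0.59 for Foxo1. Satb1 was called higher there, while of 19146 genes 11169 were lower and 2280 higher. Foxp1 and Id3 were under 0 in each of these fits and passed the test only in the rescaled ones. The median of all genes moved from -0.19 with TMM to -1.39 when the factors came from genes of at least 50 CPM.

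Satb1 was at 1216.2 and 1216.9 CPM in stimulated KLF2+ libraries, against 311.6 and 44.9 CPM in stimulated KLF2- libraries. Its fold change was above 0 in all 16 alternatives, between 0.84 and 4.82, and it was called in 15 of them. The exception was background subtraction, with 1.66 ± 0.68 (edgeR adjusted p = 0.0707), and with background subtracted and stimulated KLF2- replicate 4 left out, an alternative chosen after seeing the data, it was 0.84 (edgeR adjusted p = 0.00708). The size thus rests on which stimulated KLF2- library is read: without replicate 4 it was 1.97 and without replicate 3 it was 4.82. Bach2 was at 58.9 CPM in both stimulated KLF2+ libraries, against 82.8 and 87.1 CPM in stimulated KLF2- libraries. Its fold change was under 0 in all 16 alternatives, between -1.95 and -0.45, and 9 of them called it. The T cell markers also differed here, with 11 of 12 called higher in stimulated KLF2+ cells, and their part in these values was not tested. Which of the 9 genes were called changed as single libraries were left out. With TMM scaling their median log2 fold change ran from 0.50 without stimulated KLF2+ replicate 2 to 0.68 without stimulated KLF2+ replicate 1. The medians of all genes tested in these 2 fits were -0.38 and -0.39.

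For none of the 9 genes did the difference in response to stimulus between KLF2+ and KLF2- cells pass the edgeR test on the deposited counts, against 20.3% of all genes with a higher and 15.5% with a lower response in KLF2+ cells. Satb1 (2.43 ± 0.89, edgeR adjusted p = 0.0552) and Bcl11b (0.90 ± 0.35, adjusted p = 0.064) had an unadjusted p under 0.05, and DESeq2 called none. With the replicate number as a block both were called, Satb1 at 2.99 and Bcl11b at 0.93 (edgeR adjusted p = 0.0477), against 26.3% of all genes higher in that fit. In the background-subtracted fit 4 genes had a lower response in KLF2+ cells, against 8.24% of all genes lower and 3.58% higher in that fit: Lef1 (-1.47 ± 0.24), Foxp1 (-1.47 ± 0.39), Bach2 (-1.14 ± 0.27) and Ets1 (-0.77 ± 0.18). Factors from genes of at least 50 CPM alone gave 6 lower, against 5102 of 19146 genes lower. Limma on log2(TPM + 1) gave 7 lower, against 20.1% of all genes. Of these 4 genes Ets1 changed sign between the fits, with 0.22 ± 0.37 on the deposited counts. The Satb1 difference was called at 1.64 (edgeR adjusted p = 0.0153) without stimulated KLF2- replicate 4, at 4.48 without replicate 3 and at 2.43 without stimulated KLF2+ replicate 1. That of Bcl11b was called at 1.27 without stimulated KLF2- replicate 3 and at 1.06 without unstimulated KLF2+ replicate 2.

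Ratios within a library do not depend on any scaling factor, and were added after the data were seen. Per 100 reads of the 12 T cell markers, Satb1 gave 14.1 and 12.9 reads in stimulated KLF2+ libraries and 4.56 and 3.14 in unstimulated KLF2+ libraries. It gave 9.44 and 1.43 in stimulated KLF2- libraries and 5.11 and 4.42 in unstimulated KLF2- libraries. Tcf7 gave 11.2 and 11.8 reads in stimulated KLF2+ libraries and 29.5 and 26.8 in unstimulated KLF2+ libraries. It gave 23.7 and 35.8 in stimulated KLF2- libraries and 34.2 and 32.5 in unstimulated KLF2- libraries. Reads of Satb1 outnumbered those of Tcf7 in both stimulated KLF2+ libraries and in none of the other 6, but this order is not per length: with 6205 exon bases for Satb1 and 2682 for Tcf7, Satb1 was at 54.4 and 47.4 TPM per 100 TPM of Tcf7 in those libraries. By this measure 7 of the 9 genes were lower in both stimulated KLF2+ libraries than in both unstimulated ones, Satb1 was higher and Bach2 overlapped, while of all 19146 genes 45% were lower and 26.5% higher in this sense. Stimulated KLF2+ libraries lay below stimulated KLF2- libraries for 8 genes and above them for Satb1, and 75.5% of all genes lay below and 11.8% above, so the 8 are near what all genes showed. Between the stimulated and unstimulated KLF2- libraries 6 genes overlapped, Bach2 and Ets1 were higher and Bcl11b was lower, at 8.24 and 5.85 reads against 9.78 and 9.92, while 57.3% of all genes were higher and 4.95% lower. Between the unstimulated groups, KLF2+ libraries lay above KLF2- libraries for Lef1 and below them for Tcf7, Bach2, Foxp1, Id3 and Bcl11b. Satb1, Foxo1 and Ets1 overlapped, and the share of all genes was not counted there. These counts of separate groups have no test, and the marker genes themselves may change with stimulus.

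Within the summed TPM of the 9 genes, the Satb1 share was larger and the Tcf7 share smaller in stimulated KLF2+ than in unstimulated KLF2+ libraries. Satb1 was 17.5% and 15.6% of their summed TPM in stimulated KLF2+ libraries, against 3.12% and 2.41% in unstimulated KLF2+ libraries. In KLF2- cells it was 6.56% and 0.876% with stimulus and 3.19% and 2.82% without. Tcf7 was 32.1% and 32.9% of the sum in stimulated KLF2+ libraries, against 46.6% and 47.5% in unstimulated KLF2+ libraries, and 38.2% to 50.7% in the 4 KLF2- libraries. Lef1 was 11.02% and 12.9% in unstimulated KLF2+ libraries and 8.16% to 9.09% in the other 6. Bach2 was 1.28% and 1.25% in stimulated KLF2- libraries and 0.331% to 0.650% in the other 6. With Satb1 left out of the sum, Lef1 was 10.3% and 10.2% in stimulated KLF2+ libraries. It was then 11.4% and 13.2% in unstimulated KLF2+ libraries and 8.39% to 9.73% in the 4 KLF2- libraries. Tcf7 was then 38.9% and 39.0% in stimulated and 48.1% and 48.6% in unstimulated KLF2+ libraries.

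**Figure D3:**
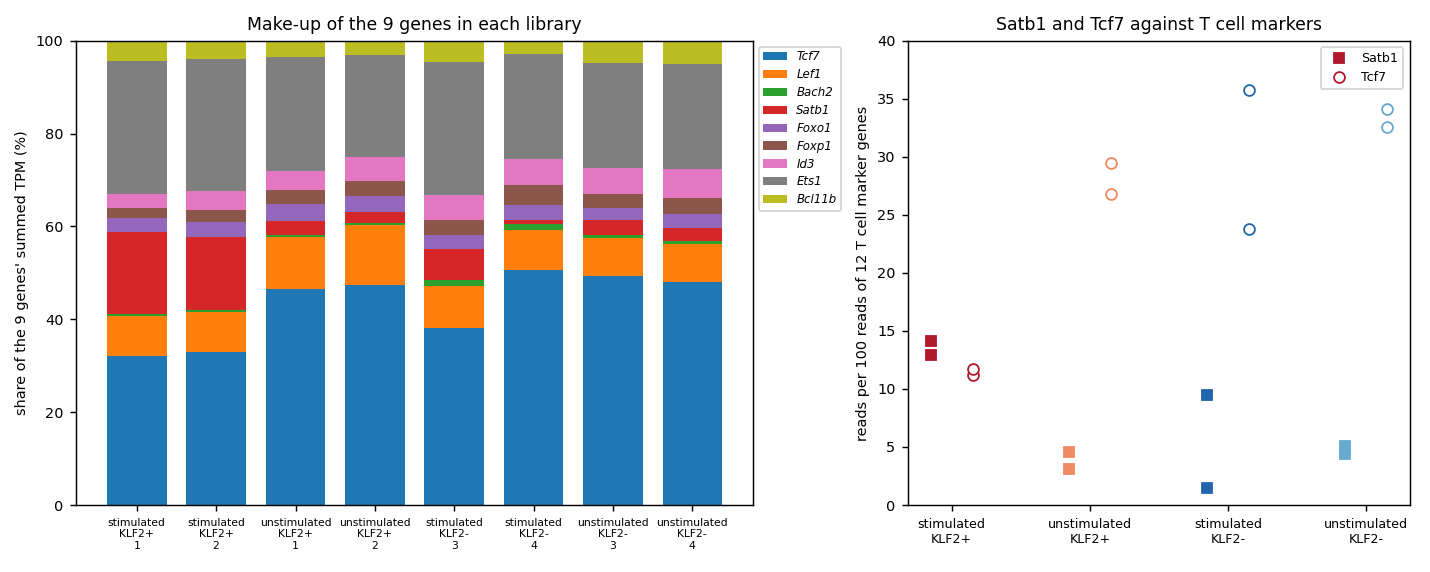
Left, each gene's share (%) of the summed TPM of the 9 genes (y axis) in the 8 libraries (x axis, with replicate numbers); right, reads of Satb1 (squares) and Tcf7 (open circles) per 100 reads of 12 T cell marker genes (y axis, linear from 0) by group, each point a library. The Satb1 share is 15.6% to 17.5% in stimulated KLF2+ libraries and at most 6.56% in the others, and in the right panel, in reads not corrected for length, Satb1 lies above Tcf7 in the stimulated KLF2+ libraries and under it in the other groups.

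Across groups, the order of levels in CPM had both separate and overlapping neighbours. Tcf7 was highest in unstimulated KLF2+ cells, then in unstimulated KLF2- cells, then in the 2 stimulated groups, which overlapped. Foxp1 and Id3 had the same order of unstimulated over stimulated cells, but their unstimulated groups overlapped each other and so did their stimulated groups. For Lef1 and Foxo1, unstimulated KLF2+ cells stood above the rest, stimulated KLF2+ and unstimulated KLF2- cells overlapped, and stimulated KLF2- cells were lowest. Ets1 was lower in both KLF2- groups than in both KLF2+ groups, which overlapped. Bach2 alone was separate at every step, from stimulated KLF2- cells down through unstimulated KLF2- and stimulated KLF2+ to unstimulated KLF2+ cells. The middle step was small, 60.2 against 58.9 CPM in the nearest libraries. Satb1 was highest in stimulated KLF2+ cells, and its stimulated KLF2- libraries lay on both sides of the unstimulated groups. Bcl11b was lowest in stimulated KLF2- cells, and its other neighbours overlapped. Each of these orders is that of the TMM-scaled values, and orders between stimulated KLF2- cells and other groups turn with the scaling as described.

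Genes that work with these factors gave a mixed picture in KLF2+ cells. Over all genes tested 17.4% were lower and 19.7% higher with stimulus, so a few calls in a short list are common. Among 14 tested paralogs, the relatives of the 9 genes, none was called higher with stimulus and 3 were lower, Tcf7l2 (-1.86 ± 0.37), Id4 (-2.26 ± 0.49) and Foxp2 (-1.83 ± 0.41, all by edgeR). These 3 are scarce, at most 18.5 CPM in KLF2+ libraries, and were highest in the stimulated KLF2- libraries, which had the largest background shares. Of 18 partner and T cell identity factors 5 were higher, among them Gfi1, a zinc-finger repressor, at 154.8 and 136.4 CPM in stimulated and 25.0 and 22.9 CPM in unstimulated KLF2+ libraries (2.60 ± 0.28), Myb (1.51 ± 0.26) and Tcf3 (1.13 ± 0.26), which encodes the E proteins that ID3 binds. The other calls, named here after their values were seen, were Mafg (1.21) and Cbfb (0.88), both higher, and Tle1 (-1.07), a corepressor partner of TCF-1, which was lower.

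Of 22 resting and central memory genes, 14 fell with stimulus in KLF2+ cells and 2 rose. For this and the next 2 lists, 17.4% of all genes tested were lower and 19.7% higher. Il7r, the interleukin 7 receptor chain, was at 265.5 and 298.0 CPM in stimulated KLF2+ libraries, against 1115.5 and 1428.4 CPM in unstimulated KLF2+ libraries (-2.17 ± 0.28). Klf3, a repressor of the KLF family, had a log2 fold change of -1.80 ± 0.23, and Pik3ip1, an inhibitor of PI3K, of -1.64 ± 0.26. The median of the list was -1.03, against -0.25 for all genes tested. Of 18 effector cell factors 11 rose and 2 fell. Prdm1, which encodes the repressor BLIMP1, was at 158.3 and 165.0 CPM in stimulated and 29.6 and 28.6 CPM in unstimulated KLF2+ libraries (2.47 ± 0.21). Bhlhe40 rose by 2.86 ± 0.27 and Tox2 by 3.05 ± 0.23, and the list median was 1.61. Named after their values were seen, Igfbp4 (2.25) and Bcl2 (0.88) were the resting and central memory genes that rose, and Ikzf2 (-1.44) and Rora (-0.68) the effector cell factors that fell. After background subtraction 19 of the 22 resting and central memory genes were lower and none higher, and 10 effector cell factors were higher and 3 lower. Over all genes 16.4% were lower and 12.7% higher in that fit. Among 12 PI3K and AKT genes, Sgk1 (-2.07 ± 0.35), a kinase that phosphorylates FOXO proteins, and Pik3r1 (-0.81 ± 0.19) were lower, while Akt2 (1.17 ± 0.21) and Akt1 (0.95), the second named after its value was seen, were higher.

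In KLF2- cells none of the genes of these 5 lists was called with stimulus by edgeR. Between unstimulated KLF2+ and KLF2- cells, 7 of the 22 resting and central memory genes, Klf2 among them, were higher in KLF2+ cells. The 1 lower call was Ccr7 (-1.51), named after its value was seen. Of all genes 1.07% were higher and 1.25% lower. Rasgrp2 had a log2 fold change of 2.11 ± 0.30 (edgeR adjusted p = 0.00848), and Klf2, whose direction the sort fixes, of 2.69 ± 0.33. Effector cell factors gave 4 lower calls of 18, among them Tox2 (-3.61 ± 0.23) and Nfil3 (-2.28 ± 0.40). Sgk1 was the 1 call among the PI3K and AKT genes (2.39 ± 0.36), Tcf7l2 the 1 call among paralogs (-1.65 ± 0.35), and none of the 18 partner factors was called, with Ctnnb1, the gene of beta-catenin and the most abundant of them, at 0.38 ± 0.20. The median over the resting and central memory list, with Klf2 in it, was 0.72, against 0.43 for the 9 factors and -0.11 for all genes tested.

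**Figure D4:**
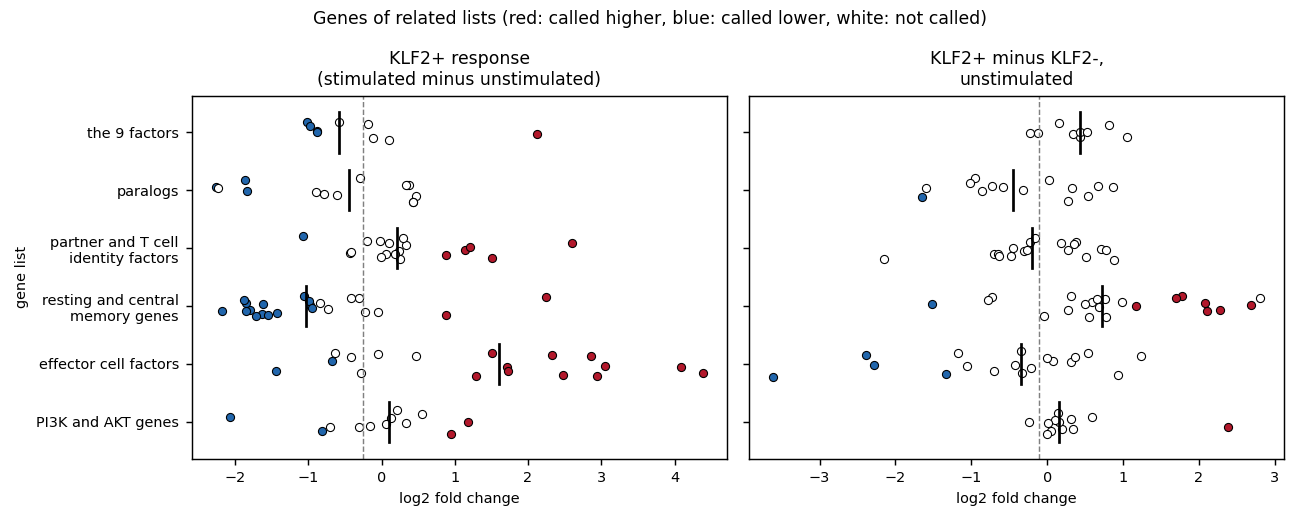
Log2 fold change (x axis) of each tested gene in the 9 factors and 5 related lists (y axis), for the KLF2+ response on the left and for unstimulated KLF2+ against KLF2- cells on the right; black bars are list medians and the dashed line is the median of all genes. Resting and central memory genes lie mainly left of 0 in the KLF2+ response (14 called lower, 2 higher) and effector cell factors mainly right (11 higher, 2 lower).

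Among themselves the 9 genes did not vary as a single group. Over the 8 libraries, the Pearson correlation of each gene's log2 CPM with the mean of the other 8 was 0.93 for Lef1, 0.90 for Foxo1, 0.83 for Tcf7, 0.81 for Ets1, 0.77 for Foxp1, 0.72 for Id3 and 0.68 for Bcl11b. For Satb1 it was 0.05 and for Bach2 -0.86. The points are libraries that share their scaling and 4 groups, so these values are descriptions. Among 10386 genes that averaged 10 CPM or more, those most like the mean of the 9 genes over the 8 libraries were Zfp69 (r = 0.992), Akap8 (0.986), Uckl1 (0.986), Fam189b (0.983) and Prkcb (0.983). Prkcb, which encodes protein kinase C beta, was at 156.2 and 169.8 CPM in stimulated KLF2+ libraries, 181.1 and 214.2 CPM in unstimulated KLF2+ libraries, 128.4 and 132.4 CPM in stimulated KLF2- libraries and 165.5 and 172.1 CPM in unstimulated KLF2- libraries.

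Annotated exons of 5 of the 9 genes overlap those of another gene. Lef1 shares 1208 bases with Gm43352, Bach2 537 bases with Bach2os and Foxo1 674 bases with Gm20402 on the opposite strand, while Satb1 shares 156 bases with Gm36931 and Foxp1 435 bases with Gm20696 and Gm49348 on its own strand. The sources used here do not say whether the counting used strand, so reads from such partners cannot be told apart from those of the 3 genes with an opposite partner.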

How the data were processed

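RNA was sequenced from 8 libraries. The labels name the SMARTer stranded pico kit and the titles polyA RNA. HOMER made the deposited table from exons of mm10 genes without adjusting for depth, per the file headers, and its deposited values are estimated counts in steps of 0.5. The settings used for strand and read filters are not given in the sources used here. The deposited TPM columns each sum to 503794 to 523430 for a reason not stated. The submitters' processing notes name STAR 2.7.9, HOMER 4.11, SAMtools and DESeq2.

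Counts were rounded and fitted in edgeR 4.0.16 (R 4.3.3), with filterByExpr, TMM factors, 1 coefficient per group and 4 residual degrees of freedom. The quasi-likelihood test gave p-values, adjusted by Benjamini-Hochberg over 19146 genes, for 5 comparisons. Alternatives used DESeq2 1.42.0, limma 3.58.1 on log2(TPM + 1) and log2(TPM + 0.1), other scaling and filters, each library left out, and subtraction of the receptor gene density times exon length together with factors from genes of at least 50 CPM. Groups of 2 allow no useful permutation test, so levels are descriptions, and intervals are normal ones from the standard error. P-values measure the spread between these libraries, which may be technical, and their number limits the precision.

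All 9 factors were named, and up to 3 called genes of smallest p in each of 5 related lists (the most abundant where none was called). Some genes this rule names are not reported here. The ratios within libraries and 1 alternative that pairs background subtraction with a left-out library were added after seeing the data. The members and lists were chosen with earlier results of these data known.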

Additional observations from a re-analysis of the deposited data

How the results depend on the processing

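The called directions of Tcf7, Lef1, Foxp1, Id3 and Satb1 in the KLF2+ response, and of Satb1 and Bach2 with stimulus, were the same in each alternative run. Over the 5 comparisons, values of the 9 genes kept direction and side of the threshold in 542 cases, were weaker in 53, stronger in 72 and changed sign in 71. The cause of these changes was not tested.

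Of the 9 genes, 7 were called in the KLF2+ response with TMM from 50 CPM, background subtraction or limma and 4 with only 2 groups, against 5 with TMM. Over all genes these fits called 7834 of 19146, 4447 of 15292, 4471 and 7182 of 19028, 5033 of 16705 and 7096 of 19146. The counts of the 9 that moved by over 1.5 times are these. With stimulus the count was 8 with background subtracted and 9 with TMM from genes of at least 50 CPM. It was 9 with limma at either pseudocount (1 or 0.1) and 2 with only the 2 groups fitted. Over all genes these fits called 8338 of 15292, 13449 of 19146, 13621 and 13653 of 19028, and 12912 of 18794. For the difference in response the count of the 9 was 4, 6 and 7 under background subtraction, TMM from 50 CPM and limma at either pseudocount. It was 1 with no filter and 2 with the replicate block. Over all genes these fits called 1807 of 15292, 6119 of 19146, 4508 and 5160 of 19028, 7380 of 24382 and 10857 of 19146. Over all genes without stimulus, DESeq2 called 1148 of 19146, limma 768 and 640 of 19028, no filter 657 of 24382 and only 2 groups 828 of 17620. Without stimulus the count of the 9 was 2 with DESeq2 and 1 each with limma at either pseudocount, no filter and only 2 groups, and the KLF2- response had 1 with the replicate block. With background subtracted and stimulated KLF2- replicate 4 left out, chosen after seeing the data, it was 8 in the KLF2+ response, 1 in the KLF2- response, 2 without stimulus, 8 with stimulus and 4 for the difference. Leaving out 1 library gave 0 to 5 in the KLF2+ response, 0 to 1 in the KLF2- response, 0 to 2 without stimulus, 1 to 6 with stimulus and 0 to 2 for the difference.

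Background subtraction includes the TMM from 50 CPM. Signs changed with stimulus under background subtraction (Tcf7 -1.25, Lef1 -0.77, Foxo1 -0.65, Ets1 -0.58, Bcl11b -0.45), TMM from 50 CPM (-1.11, -0.66, -0.59, -0.45 and -0.40 for these genes in this order), limma with pseudocount 1 (-1.29, -0.89, -0.79, -0.70, -0.62) and 0.1 (-1.29, -0.90, -0.82, -0.70, -0.64), and the added alternative (-0.74, -0.58, -0.32, -0.53, -0.59). Tcf7 was -0.068 with only 2 groups, and with no filter Foxp1 was 0.014 and Id3 0.032. In the KLF2+ response Bach2 was -0.32 with background subtracted, -0.41 with TMM from 50 CPM, -0.49 and -0.57 with limma and -0.34 in the added alternative. In the KLF2- response Foxo1 was 0.045, Foxp1 0.073 and Ets1 0.052 with background subtracted, Foxo1 0.018 and Foxp1 0.035 with TMM from 50 CPM, Foxo1 0.0053 and 0.0051 with limma, and Satb1 0.76 in the added alternative. Without stimulus Id3 was -0.20, -0.18, -0.25, -0.25 and -0.21 under background subtraction, TMM from 50 CPM, limma with 1 and 0.1 and the added alternative, and Satb1 was -0.024 and -0.025 with limma. In the difference, Ets1 was -0.77, -0.66, -0.84, -0.85 and -0.71 in that same order, and Bcl11b was -0.0010 with background subtracted, -0.14 and -0.15 with limma and -0.13 in the added alternative. Ranges over left-out libraries that crossed 0 were -0.049 to 0.42 for Tcf7, -0.23 to 0.21 for Foxp1 and -0.41 to 0.31 for Id3 with stimulus, -2.34 to 0.49 for Satb1 in the KLF2- response, -0.26 to 0.54 for Id3 and -0.24 to 0.057 for Bcl11b without stimulus, -0.34 to 0.0038 for Ets1 and -0.25 to 0.051 for Bcl11b in the KLF2+ response, and -0.37 to 0.031 for Foxo1 and -0.60 to 0.26 for Id3 in the difference.

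Same-numbered libraries deviated together (r = 0.67 for KLF2+ and 0.31 for KLF2- cells, over 10395 genes), but the labels do not say what a number marks. Each population has only 2 pairs, which mirror each other because deviations were taken from a mean of 2 libraries. KLF2+ replicate 1 also had more background than replicate 2, at 7.06% against 2.61% without stimulus and 1.24% against 0.401% with it. The part of background in these correlations was not tested. Over all genes the replicate block moved calls to 770 in the KLF2- response, against 0 without it, to 10851 against 7096 in the KLF2+ response and to 10857 against 6855 for the difference. Among other counts over all genes that moved by over 1.5 times were 1148 with DESeq2, 768 with limma (pseudocount 1) and 828 with only 2 groups without stimulus, against 444, and 4447 with background subtracted in the KLF2+ response, 8338 with stimulus and 1807 for the difference, against 7096, 14396 and 6855. Limma (pseudocount 1) called 4471 in the KLF2+ response and 4508 for the difference, and in the KLF2- response DESeq2 called 74, limma 12 and no filter 2. The added alternative called 393 in the KLF2- response, 1491 without stimulus, 6927 with stimulus and 1129 for the difference. With single libraries left out the counts ran over 2097 to 8971 in the KLF2+ response, 0 to 107 in the KLF2- response, 33 to 1692 without stimulus, 11690 to 15352 with stimulus and 70 to 9581 for the difference. With TMM from 50 CPM the log2 fold changes of all genes had medians of -0.75 in the KLF2+ response, 0.45 in the KLF2- response, -0.39 without stimulus, -1.39 with stimulus and -1.003 for the difference, against -0.25, 0.064, -0.11, -0.19 and -0.092 with TMM. It called 2167 genes higher and 5667 lower in the KLF2+ response, against 3771 and 3325 with TMM, 2280 and 11169 with stimulus, against 6799 and 7597, and 1017 and 5102 for the difference, against 3890 and 2965. A left-out library leaves its group with 1 library, assumed to vary like the others. The precision for Satb1 and Bach2 was limited in stimulated KLF2- replicate 4, the library with the fewest exon reads, where 26.7% and 18.7% of their reads were background.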
